A study of Mus musculus with 26 samples.

Results

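Meis, Pbx and Pknox genes encode homeodomain transcription factors of the TALE class, which bind DNA together with Hox proteins. Of this group, Meis1, Meis2, Meis3, Pbx2, Pbx3, Pbx4, Pknox1 and Pknox2 were examined, 8 of the 21951 protein-coding genes of the annotation, chosen by name and found by their gene identifiers. A Pbx protein pairs with a Hox protein on a joint DNA site and sharpens which sites that Hox protein selects. Meis and Pknox proteins bind Pbx through a shared N-terminal region, and Meis and Pknox compete for the same Pbx surface. In vertebrate embryos, Meis genes are known as targets of retinoic acid (RA) in the limb bud and the hindbrain, and RA also opens the Hox clusters in embryonic stem cells. The question was therefore how the chromatin around each subfamily looked before and shortly after exposure to RA.

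The cells were E14, 1 line of mouse embryonic stem cells grown without feeders. All of them were kept for 48 h in medium with leukemia inhibitory factor (LIF), a cytokine that maintains pluripotency. For the last 4 h the medium was replaced by fresh medium with LIF (mESC+) or by fresh medium without LIF and with 1 µM RA (mESC−), so withdrawal of LIF and addition of RA cannot be told apart. ATAC-seq, which cuts open chromatin with a transposase, has 1 library per state, made from 75000 cells, and RNA-seq of polyadenylated RNA has 3 libraries per state. ChIP-seq has 1 library per state for each histone mark. Any difference between the states in the ATAC-seq or ChIP-seq data thus has no replicate check, and no test was made.

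The mESC+ list held 163484 ATAC-seq peaks with a median fold enrichment over the local background of 6.68, and the mESC− list held 141465 with a median of 6.52. Read totals are unknown, and the longer mESC+ list bears on every count below. Peaks of the lists that overlapped by at least 1 bp were merged, which gave 180036 regions, and a peak was ranked by the percentile of its fold enrichment within its own list. Of the markers of pluripotent cells, 8 of 9 had a promoter peak in each list, as had 8 (mESC+) and 7 (mESC−) of 10 markers of differentiated cells, so promoter peaks did not separate these cell types. In bulk material, fewer cells with an open site and a less open site in every cell cannot be told apart.

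In the RNA table, which lists only genes under the authors' limit on the adjusted p-value for the comparison of the states, Meis1, Meis2 and Pbx2 had a row. The other 5 genes were not listed. Of all protein-coding genes 9.04% were listed, against these 3 of 8, and the choice of the genes was made with this known. The fold changes of that table are the authors' own comparison and were not analysed here, so no direction is given for RNA. The authors' mean normalized count over all 6 libraries was 58.6 for Meis1, 354 for Meis2 and 2619 for Pbx2. Per kb of exon, these means were 5.56 for Meis1, 29.4 for Meis2 and 719 for Pbx2. On this length-corrected scale Meis1 stood at the 4.18th percentile of the listed genes, Meis2 at the 20.2nd and Pbx2 at the 85.3rd. Pbx2, a widely expressed partner of Hox proteins, thus had by far the highest level of the 3, and the Meis genes were among the weaker listed genes. The spread between libraries cannot be given from a pooled mean.

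Sequences are shown first for a region that rose and for one found in mESC− alone at the Meis genes with RNA rows, read on the plus strand of GRCm38, with the bases inside the mESC− peak in capitals. The shared region with the largest rise of any member lies in an intron of Meis1 (chr11:18927337-18927636, 300 bases around the summit). The region found in mESC− alone with the highest fold enrichment among the Meis genes lies in an intron of Meis2 (chr2:115878648-115878947).
Meis1 intron, 91.5 kb from the start: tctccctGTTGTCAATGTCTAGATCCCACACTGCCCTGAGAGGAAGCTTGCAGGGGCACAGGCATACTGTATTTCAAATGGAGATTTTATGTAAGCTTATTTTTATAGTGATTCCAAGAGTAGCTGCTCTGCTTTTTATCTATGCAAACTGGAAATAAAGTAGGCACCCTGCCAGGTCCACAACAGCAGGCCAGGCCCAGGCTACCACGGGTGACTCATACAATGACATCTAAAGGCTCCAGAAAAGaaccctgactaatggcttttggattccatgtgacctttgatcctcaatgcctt
Meis2 intron, 187.0 kb from the start: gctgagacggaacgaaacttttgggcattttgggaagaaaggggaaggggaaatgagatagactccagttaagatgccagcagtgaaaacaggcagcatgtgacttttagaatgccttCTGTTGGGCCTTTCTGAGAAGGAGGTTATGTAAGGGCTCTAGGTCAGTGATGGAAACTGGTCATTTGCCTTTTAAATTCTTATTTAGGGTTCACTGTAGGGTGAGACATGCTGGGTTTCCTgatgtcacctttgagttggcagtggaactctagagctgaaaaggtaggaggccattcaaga
The Meis2 peak was 121 bases wide, whereas 240 of the 300 bases of the Meis1 window lay inside its peak. GC content was 45.7% in each window.

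RefSeq promoters (GRCm38.p6, 300 bases around the start) matched 5 of the 8 genes and were equal to the genome in all 5, while Pbx3, Pknox1 and Pknox2 had none in the table. Meis1 (chr11:19018920-19019219, minus strand) and Pbx4 (chr8:69832374-69832673, plus strand) are shown as a weak and a strong promoter, read in the direction of transcription, with the bases inside the mESC+ peak in capitals.
Meis1 promoter: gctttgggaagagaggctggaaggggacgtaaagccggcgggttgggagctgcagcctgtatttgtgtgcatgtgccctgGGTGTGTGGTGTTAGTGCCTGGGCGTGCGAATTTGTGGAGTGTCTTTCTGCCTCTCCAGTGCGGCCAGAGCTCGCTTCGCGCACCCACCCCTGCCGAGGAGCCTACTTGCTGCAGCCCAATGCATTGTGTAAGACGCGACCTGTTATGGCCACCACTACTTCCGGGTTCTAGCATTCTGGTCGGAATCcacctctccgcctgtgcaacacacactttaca
Pbx4 promoter: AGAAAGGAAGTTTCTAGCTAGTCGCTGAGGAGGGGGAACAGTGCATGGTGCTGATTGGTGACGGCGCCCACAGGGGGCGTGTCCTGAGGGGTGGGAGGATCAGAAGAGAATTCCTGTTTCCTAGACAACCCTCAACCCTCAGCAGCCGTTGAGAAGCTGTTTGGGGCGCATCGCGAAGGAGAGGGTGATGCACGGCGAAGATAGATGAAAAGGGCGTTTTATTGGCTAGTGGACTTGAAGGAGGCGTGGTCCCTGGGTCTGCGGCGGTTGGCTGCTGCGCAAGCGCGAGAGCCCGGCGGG
The mESC+ peak covered all 300 bases at Pbx4, 277 at Meis3, 188 at Meis1, 125 at Pbx2 and 0 at Meis2, whose RefSeq start lies downstream of the start of its gene record.

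Promoter peaks, counted within 500 bp of the start of the gene record, were found for 7 of the 8 genes in each list, compared with 64.6% of protein-coding genes in mESC+ and 63.5% in mESC−. Pbx4, a Pbx gene best known from the testis, had the most open promoter, with a fold enrichment of 19.9 (99.1st percentile) in mESC+ and 19.5 (99.3rd percentile) in mESC−. Pbx3, a Hox partner in the developing nervous system and limb, had a fold enrichment of 12.4 and 13.3 in mESC+ and mESC− (87.3rd and 91.5th percentile). Meis3, the Meis gene of the posterior hindbrain, had 13.4 and 11.5 (90.0th and 85.8th percentile). In the lists as deposited, the percentiles of these 3 promoters differed by less than 5 points between the states. Among peaks with a −log10 q of at least 10, Pbx3 differed by 7.55 points and Meis3 by −11.7.

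The promoters of Meis1, a regulator of blood stem cells and of limb identity, and Meis2, a regulator of heart, limb and neural crest, were far weaker at the start of the gene record. Meis1 had a fold enrichment of 5.30 in mESC+ and 5.32 in mESC− (30.9th and 27.9th percentile). Meis2 had 5.16 and 5.42 (29.5th and 33.2nd percentile). Pknox2 lay between, with 8.28 and 7.58 (65.5th and 60.6th percentile). At the starts of their gene records, Meis1 and Meis2 were thus in the lower part of each list. With any annotated transcript start, the strongest Meis2 peak was another one, chr2:115872946-115873183 in mESC+, with a fold enrichment of 11.1 in mESC+ and 8.65 in mESC− (82.0th and 70.1st percentile), whereas Meis1 had the same peak as before.

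Of the 7 promoters with a peak in both lists, none was at least 10 percentile points higher in mESC− (8.46% of all such promoters), and 1 was at least 10 points lower (15.5% of all). When only peaks at a −log10 q of 10 or more were kept, differences were −45.6 points for Pknox1, −12.4 for Pknox2 and −11.7 for Meis3, so 3 were then lower by that much. The promoter called in the lists as deposited was Pknox1, which encodes Prep1, a partner of Pbx that the early embryo needs. Its fold enrichment was 11.0 in mESC+ and 7.69 in mESC− (81.6th and 61.3rd percentile, a difference of −20.4 points). A neighbouring region just upstream, chr17:31564232-31564589, went the other way, from the 33.6th to the 58.9th percentile. Further regions downstream of the start, in the windows chr17:31565103-31565402 and chr17:31565833-31566132, were found in mESC+ alone. The peaks around the start of Pknox1 thus differed in both directions. With any annotated transcript start in place of the gene record, the strongest Pknox1 peak was another one and differed by −3.61 points, and Meis2 was the gene past 10 points, at −12.0.

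Pbx2 had no peak within 500 bp of the start of its gene record in either list. Its RefSeq promoter (chr17:34592009-34592308) starts further downstream and held a weak mESC+ peak at chr17:34592111-34592235, with a fold enrichment of 3.50 (2.62nd percentile), and no mESC− peak. The next peak, at chr17:34592790-34593129 in an intron, had a fold enrichment of 6.96 in mESC+ and 7.54 in mESC− (54.4th and 60.3rd percentile). The gene with the highest mean RNA level of the 3 listed members was thus the only one of the 8 genes with no peak at the start of its gene record. With any annotated transcript start, however, this intronic peak was a promoter peak of Pbx2 in both lists, so the lack of one depended on the start used. It also depended on the width, since the weak mESC+ peak lies within 1000 bp of the start of the gene record.

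**Figure D1:**
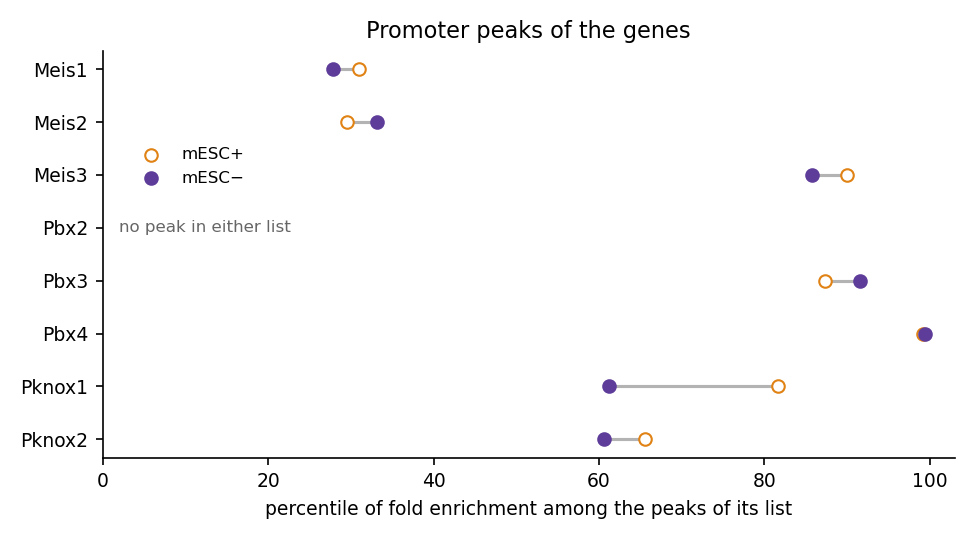
Percentile of the fold enrichment of each gene's promoter peak among all peaks of its list (x axis), in mESC+ (open points) and mESC− (filled points), 1 library per state. Meis1 and Meis2 lie near the 30th percentile, Pbx4 lies above the 99th in both states, and the Pknox1 peak is 20.4 points lower in mESC−.

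Within 100 kb of the genes lay 334 merged regions, 111 for Meis, 100 for Pbx and 123 for Pknox. The genes sit in very different surroundings. Meis1 had 29 regions (8.55 per 100 kb, 36.3rd percentile of all protein-coding genes), and Meis2 had 36 (8.94 per 100 kb, 38.2nd percentile). All 29 regions of Meis1 and 35 of 36 of Meis2 had that gene's own start as the nearest protein-coding start. Pbx3 was the sparsest, with 17 regions (4.23 per 100 kb). In contrast, Meis3 (46 regions), Pbx4 (45), Pknox1 (45) and Pbx2 (38) lie among many other genes, with 18.4 to 21.8 regions per 100 kb, and the nearest start was the gene itself for 12, 6, 10 and 2 of them, respectively. Pknox2, the longest gene with 256 kb, had 78 regions, of which 32 were nearest to its own start and 46 lay inside it. A region is therefore counted by distance here, and outside Meis1 and Meis2 most regions lay nearer to another gene, with 7 of 17 nearest to Pbx3.

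Regions with a peak in mESC− alone made up 14.4% of the Meis regions (16 of 111, exact Clopper-Pearson 95% interval 8.47% to 22.4%). They made up 10.0% of the Pbx regions (10 of 100, 4.90% to 17.6%) and 11.4% of the Pknox regions (14 of 123, 6.36% to 18.4%), compared with 11.0% of all regions. Each interval covers counting error over regions only and includes the share of all regions, so no subfamily stood apart on this measure. Regions with a peak in mESC+ alone made up 13.5% of the Meis regions (15 of 111, 7.77% to 21.3%), 18.0% of the Pbx regions (18 of 100, 11.0% to 26.9%) and 25.2% of the Pknox regions (31 of 123, 17.8% to 33.8%), compared with 23.7% of all regions. Here the Meis share lay below that of all regions, beyond its counting interval, while those of Pbx and Pknox did not.

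By gene, Meis2 had 7 regions in mESC− alone and 3 in mESC+ alone, and Meis1 had 4 and 3. The other 6 genes had fewer regions in mESC− alone than in mESC+ alone, as the list lengths favour. Meis3 had 5 and 9, Pbx2 had 4 and 7, Pbx3 had 2 and 3, and Pbx4 had 4 and 8. Pknox1 had 5 and 10, and Pknox2 had 9 and 21. When the mESC+ list was shortened to the length of the mESC− list, the shares of all regions became 16.2% in mESC− alone and 17.1% in mESC+ alone. The Meis shares were then 21.5% and 10.3%, the latter with an interval of 5.24% to 17.7% that includes the 17.1% of all regions. The shares in mESC− alone and mESC+ alone were 17.4% and 10.9% for Pbx and 17.0% and 17.9% for Pknox. By gene, the order then turned for Meis3 (9 in mESC− alone and 6 in mESC+ alone), Pbx2 (6 and 4), Pbx3 (3 and 2), Pbx4 (7 and 4) and Pknox1 (8 and 6). Meis1 (7 and 3) and Meis2 (7 and 2) kept their order, and so did Pknox2 (11 and 14), in the opposite direction. The order within a gene thus depended on the length of the lists for 5 of the 8 genes.

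**Figure D2:**
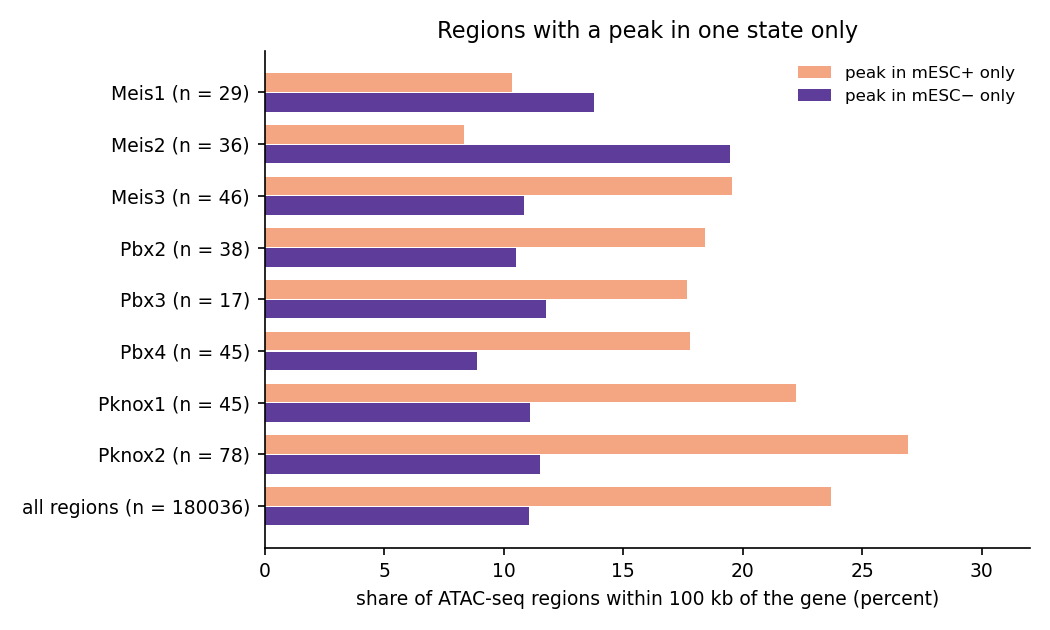
Share of the ATAC-seq regions within 100 kb of each gene (x axis, percent) that had a peak in mESC+ alone (light bars) or in mESC− alone (dark bars), from the lists as deposited. With these lists the dark bar is the longer one for Meis1 and Meis2, whereas with lists of equal length it would be so for every gene but Pknox2, and all 180036 regions are shown in the lowest row.

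Regions found in 1 state alone were mostly weak. The 16 Meis regions of mESC− alone had a median at the 15.1st percentile of their list, and 2 of them were at or above the 50th. The highest was the Meis2 intron shown above, at chr2:115878766-115878886 with a fold enrichment of 6.99 (54.2nd percentile). The next in Meis2, chr2:115925396-115925532, also intronic and 140.4 kb from the start, had 6.52 (49.2nd percentile). Another, chr7:16144893-16145034, had 6.67 (51.9th percentile) but lies in Slc8a2, 30.1 kb upstream of Meis3. In Meis1, the regions of mESC− alone ranked between the 2.9th and the 40.5th percentile, the highest being intronic at chr11:18915700-18915798.

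For the Pbx genes, none of the 10 regions of mESC− alone reached the 50th percentile. The strongest lay in an intron of Pbx3, chr2:34326302-34326412, with a fold enrichment of 6.52 (49.2nd percentile). The strongest of all members were 2 Pknox2 regions with the same fold enrichment of 8.30 (67.5th percentile). Of these, chr9:37064924-37065066 lies in an intron of Pknox2, 82.4 kb from its start, and chr9:36866751-36866857 lies in Fez1. Among the regions of mESC+ alone, the strongest was again near Pknox2 and in Fez1, chr9:36865504-36865670, with a fold enrichment of 8.98 (70.9th percentile), about 1 kb from the Fez1 region of mESC− alone. The strongest region of mESC+ alone inside a member was the Pknox1 intron at chr17:31583330-31583513, with 6.42 (48.1st percentile).

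The 230 regions with a peak in both lists show graded change. In mESC−, 40 of 80 Meis regions ranked higher than in mESC+ (50%, exact Clopper-Pearson 95% interval 38.6% to 61.4%). For Pbx this held for 24 of 72 (33.3%, 22.7% to 45.4%) and for Pknox for 28 of 78 (35.9%, 25.3% to 47.6%), compared with 40.7% of all shared regions. Each interval includes the value of all shared regions, and the intervals of the subfamilies overlap one another. With lists of equal length the shares were 67.1% for Meis (55.1% to 77.7%), 47.0% for Pbx and 49.3% for Pknox, compared with 52.6% of all shared regions. The value of Meis thus moved with the length of the lists, as did that of all shared regions. The Meis share lay above that of all shared regions in every setting of the plot of shares by setting. Its interval lay wholly above with lists of equal length, with ranks by −log10 p and with ranks among shared regions alone, and included that value in the other settings. The Pbx share lay below that of all shared regions in these settings except among the 50000 strongest peaks, where it was 55.2% against 52.9%. All these intervals count neighbouring regions of a few genes as if they were independent, from 1 library per state. They are thus no test of whether a subfamily differs from all shared regions. The ranks among shared regions alone were added after the data were seen.

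**Figure D3:**
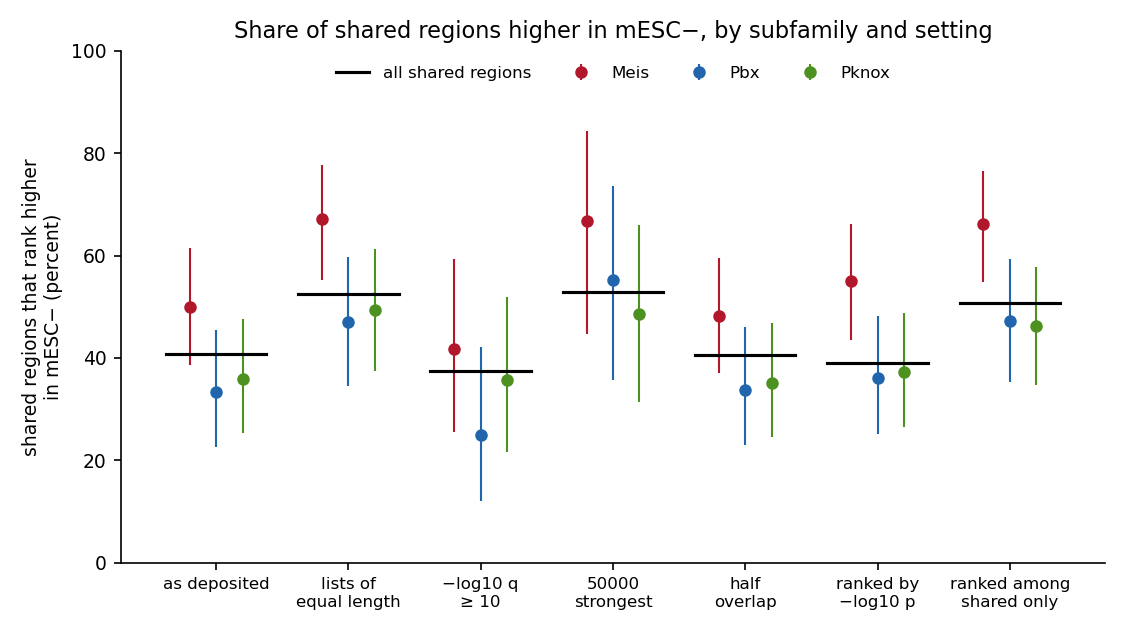
Share of shared regions that ranked higher in mESC− (y axis, percent) for Meis, Pbx and Pknox under each setting (x axis), with exact 95% intervals for counting error as vertical lines and the value of all shared regions as black bars. The Meis point lies above the black bar in each setting, at 50% against 40.7% for the lists as deposited.

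Changes of at least 10 percentile points were frequent in both directions. Of the 80 shared Meis regions, 12 were higher in mESC− by that much and 20 lower. For Pbx these numbers were 9 and 26 of 72, and for Pknox 10 and 22 of 78. Among all shared regions 16.2% were higher and 30.0% lower by at least 10 points. The median difference was −1.57 points for Meis1, 1.68 for Meis2 and −0.03 for Meis3. It was −5.65 for Pbx2, −0.31 for Pbx3 and −3.82 for Pbx4, and −4.31 for Pknox1 and −0.51 for Pknox2, compared with −2.49 for all shared regions. The genes thus differed less in their medians than in their extremes, and Meis1 had the widest spread upward.

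**Figure D4:**
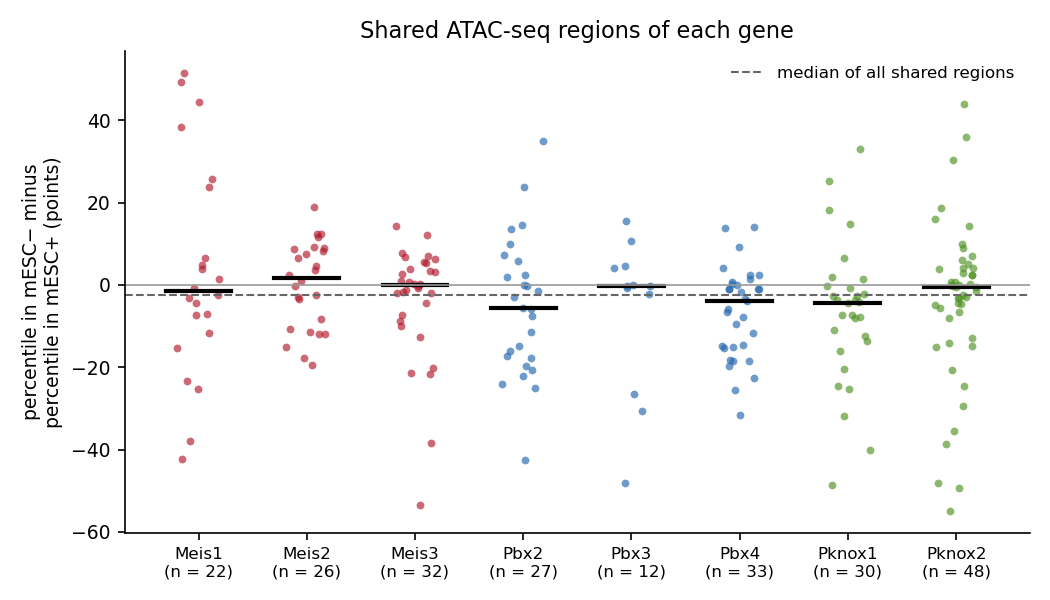
Difference of percentile, mESC− minus mESC+, for every shared region of each gene (points, jittered sideways), with the gene's median as a black bar and the median of all shared regions, −2.49 points, as a dashed line. Meis1 has 3 points above 40, Meis2 stays between −19.4 and 18.9, and the lowest points belong to Pknox2 and Meis3.

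The 3 largest rises of a Meis region were all near Meis1. The intronic region chr11:18927315-18927622, shown above, went from a fold enrichment of 4.49 (15.9th percentile) in mESC+ to 8.30 (67.5th) in mESC−, a rise of 51.6 points. A second, chr11:18821484-18821645, lies downstream of the gene, 197.4 kb from its start, and went from 5.05 (26.3rd) to 9.48 (75.7th), a rise of 49.4 points. The next, intronic at chr11:18982556-18982722 and 36.3 kb from the start, went from 4.46 (13.9th) to 7.21 (58.2nd), a rise of 44.3 points. These 3 are sites of low rank in LIF that reached the middle or upper part of the mESC− list within 4 h. They were chosen as the largest of many, so their size is a description. Their mESC+ peaks had a −log10 p of 5.76, 6.83 and 5.71, compared with a median of 11.5 in that list. None of these mESC+ peaks therefore passes a −log10 q of at least 10. With lists of equal length or the 50000 strongest peaks, the region with the largest rise was no longer shared, so its rise has no value there.

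Other Meis1 regions fell. The intronic region chr11:18946595-18946796 went from a fold enrichment of 6.63 (49.6th percentile) to 4.07 (7.39th), a difference of −42.2 points, next to chr11:18945855-18946499, which rose from the 48.9th to the 72.6th percentile. The most open region near Meis1, chr11:19073990-19074526, 55.3 kb upstream, had a fold enrichment of 18.2 and 20.0 (98.1st and 99.5th percentile). Near the top of a list a percentile can hardly move, so a given change of fold enrichment counts for more points among weak peaks. Meis1 thus combined an upstream site of high rank in both lists, a weak promoter and intronic sites that moved in both directions, as the maps of Meis1 and Meis2 show.

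**Figure D5:**
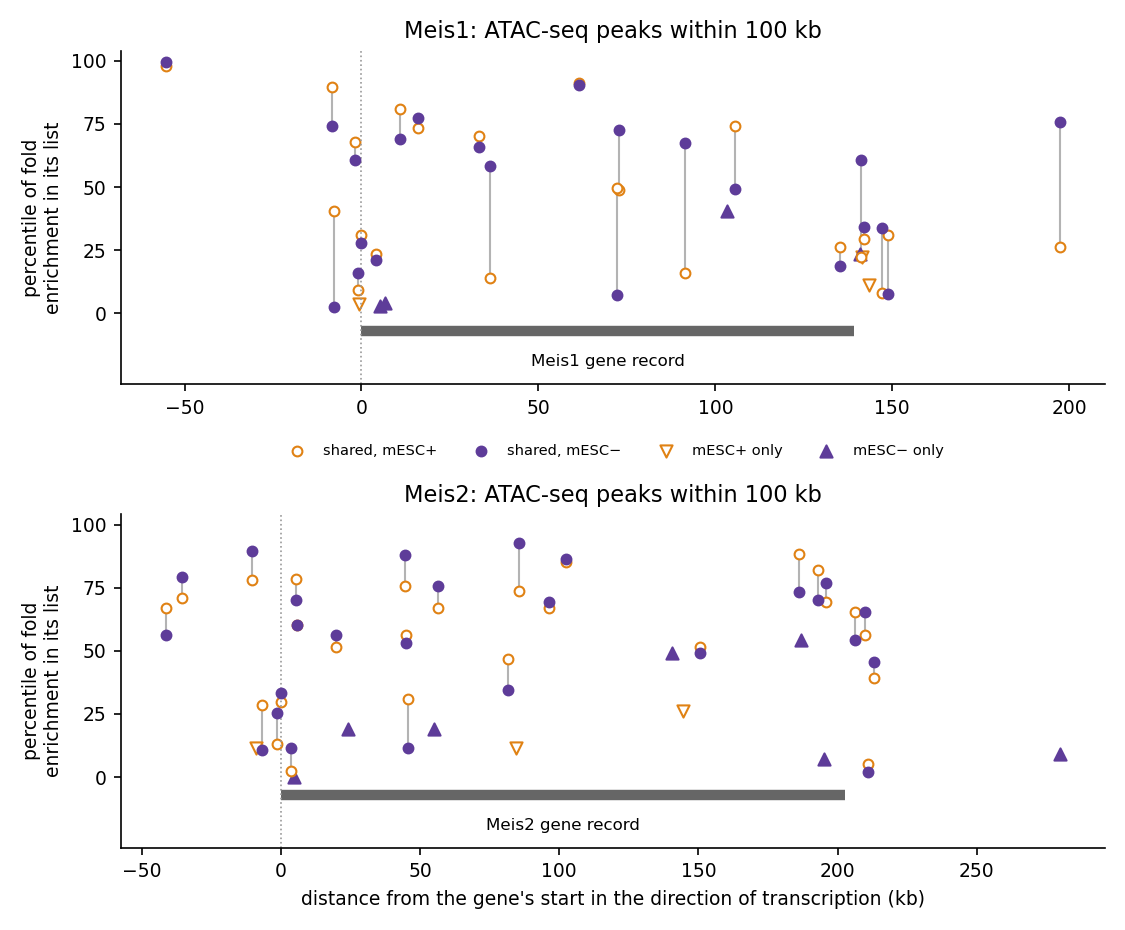
ATAC-seq regions within 100 kb of Meis1 (top) and Meis2 (bottom) by distance from the start of the gene (x axis, kb) and percentile in each list (y axis). Grey lines join the mESC+ (open) and mESC− (filled) values of a shared region, triangles mark regions of 1 list alone, and the grey bar is the gene record. At Meis1, 3 regions rise by 44.3 to 51.6 points, and at Meis2 the shared regions move by less than 20 points.

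At Meis2 the shared regions moved less, between −19.4 and 18.9 points. The largest rise was in the intronic region chr2:115980138-115980460, 85.5 kb from the start, from the 73.6th to the 92.5th percentile. For Meis3 the largest changes were falls. Region chr7:16214060-16214320 went from a fold enrichment of 8.50 (68.1st percentile) to 4.54 (14.5th), a difference of −53.6 points, but lies in Dhx34, 39.1 kb from the start of Meis3. Region chr7:16130426-16130669, in Slc8a2, differed by −38.4 points. No shared Meis3 region rose by more than 14.4 points.

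Near the Pbx genes the largest single change inside a gene was a fall in an intron of Pbx3, chr2:34261607-34261813, from a fold enrichment of 12.9 (88.7th percentile) to 5.93 (40.5th), a difference of −48.2 points. The strongest intronic site of Pbx3, chr2:34249531-34250066, ranked near the top of both lists, with a fold enrichment of 23.9 and 20.4 (99.9th and 99.6th percentile). Near Pbx2, chr17:34562659-34562977, upstream of the gene and closest to the start of Notch4, rose from the 24.1st to the 59.2nd percentile, and chr17:34660951-34661597, closest to Tnxb, fell from the 49.7th to the 7.29th. In Pbx4, a strong intronic site, chr8:69860875-69861241, stood at the 98.6th and 98.7th percentile.

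Pknox2 had the lowest difference of all members, −54.9 points, in the intronic region chr9:36977048-36977280, where the fold enrichment went from 7.96 (63.9th percentile) to 4.15 (9.03rd). In another intron, chr9:36996695-36996852 rose from 5.05 (26.3rd) to 7.70 (62.4th), a rise of 36.1 points. Its largest rise, 44.0 points, was at chr9:36833342-36833667 in Fez1. For Pknox1, chr17:31478709-31478889, 85.9 kb upstream and closest to Wdr4, differed by −48.6 points, and chr17:31535461-31535678, closest to Ndufv3, rose by 33.0 points. The largest changes in both directions at Pknox1 thus lay outside the gene, whereas Pknox2 had large ones inside it.

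Dynamic enhancer regions, which the authors called from enhancer probabilities (0 to 1) predicted from H3K4me1, H3K4me3 and H3K27ac, were absent near all members. Their list holds the regions called at the paper's default minimum difference of probability between the states. With a smaller minimum the paper reported many more regions, which were not examined here, so smaller changes near the members are not covered. Of the 327 regions of that list, 141 were higher in mESC− and 186 in mESC+, and 0 of them lay within 100 kb of any of the 8 genes. Near other protein-coding genes this is rare as well, since 2.56% had a region higher in mESC− and 2.11% a region higher in mESC+ in that distance. The nearest one was 406 kb from Pbx2, chr17:35003701-35005300, where the enhancer probability was 0.112 under LIF and 1 under RA. For the other 7 genes the nearest was 1922 kb (Pknox1) to 5935 kb (Meis2) away. The Meis1 regions that rose by over 40 points were therefore not among the dynamic enhancers called from histone marks at the default minimum. The genes with the most dynamic regions higher in mESC−, Ap5z1, Camta1, Foxk1, Papolb and Radil, had 3 each within 100 kb.

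Of 39 Hox genes, the partners of these genes, 15 had a row in the RNA table. That compares with 3 of 8 members and 9.04% of all protein-coding genes. A dynamic enhancer region higher in mESC− lay within 100 kb of 9 Hox genes, compared with 2.56% of all protein-coding genes. These were all of the 9 from Hoxb1 to Hoxb9, whose windows overlap. Promoter peaks were found for 25 Hox genes in mESC+ and 22 in mESC−, compared with 64.6% and 63.5% of all protein-coding genes. Of the 20 with a peak in both, 5 were at least 10 points higher and 10 at least 10 points lower in mESC−. Among all such promoters, 8.46% were higher and 15.5% lower by that much. The median difference of the 20 Hox promoters was −12.2 points. Hoxb1, the first gene of its cluster to respond to RA in the embryo, went from the 18.8th to the 44.8th percentile. Among the 9 other TALE genes (the Irx and Tgif genes and Mkx), all had a promoter peak in both lists, none was at least 10 points higher and 1, Irx1, was at least 10 points lower. Of these only Tgif1, which encodes a repressor known to act on RA-dependent genes, was listed in the RNA table, and it also had a dynamic region higher in mESC+.

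Binding motifs were searched as exact letters on both strands in the 300 bases around each region's summit. The site of MEIS and PKNOX proteins, TGACAG, was found in 19.8% of the Meis windows, 22% of the Pbx windows and 19.5% of the Pknox windows, compared with 18.9% of all 179949 windows. The site of PBX with a Hox protein, TGATNNAT, was found in 10.8% of the Meis, 9% of the Pbx and 4.07% of the Pknox windows, compared with 7.81%. RA receptors bind direct repeats of a half-site, for which AGGTCA was allowed, and also the variant AGTTCA, the variant GGGTCA and the variant GGTTCA. Such a repeat with a spacing of 1, 2 or 5 bases was found in 3 Meis, 1 Pbx and 3 Pknox windows (2.70%, 1.00% and 2.44%), compared with 1.11%. These few windows do not set a subfamily apart. None of the motifs was found in the 5 matched promoters. Among all RefSeq promoters of this length TGACAG is in 19.2%, and each other motif is in a lower share. With only 5 promoters, finding none does not set them apart.

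The windows with a repeat at the Meis genes and those with TGAT directly followed by TGACAG, a joint site of PBX with MEIS or PKNOX that can overlap the sites above, are shown with the motif in capitals and 25 bases on each side, read in the direction of the motif.
Meis2 intron, spacing of 5, chr2:115870741-115870807, plus strand: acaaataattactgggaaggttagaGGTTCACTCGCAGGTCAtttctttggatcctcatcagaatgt
Meis2 intron, spacing of 2, chr2:116021210-116021273, plus strand: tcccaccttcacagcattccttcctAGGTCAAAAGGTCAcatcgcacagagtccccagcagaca
Meis3 downstream, spacing of 2, chr7:16230033-16230096, minus strand: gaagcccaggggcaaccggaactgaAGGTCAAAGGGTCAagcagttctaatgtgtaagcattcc
Meis2 downstream, joint site, chr2:115786025-115786084, plus strand: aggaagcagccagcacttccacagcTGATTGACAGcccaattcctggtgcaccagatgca
Pbx4 upstream, joint site, chr8:69750012-69750071, plus strand: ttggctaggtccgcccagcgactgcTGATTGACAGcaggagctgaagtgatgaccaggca
Pknox1 upstream, joint site, chr17:31467145-31467204, plus strand: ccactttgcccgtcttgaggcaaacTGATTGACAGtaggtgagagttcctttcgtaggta

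The Meis2 region with the repeat spaced by 5, chr2:115870685-115870979, was found in mESC− alone and was weak, with a fold enrichment of 4.04 (7.10th percentile). The Meis2 region with the repeat spaced by 2, chr2:116021084-116021383, 44.6 kb from the start, was stronger in mESC−, with a fold enrichment of 9.72 in mESC+ and 12.1 in mESC− (75.6th and 88.0th percentile). The Meis3 region with a repeat, chr7:16230004-16230156, was found in mESC+ alone (5.62, 36.3rd percentile) and is closest to Dhx34. Thus the repeats occurred in regions of all 3 kinds, and none of the 3 Meis1 regions with the largest rises had one. The joint site was found in 1 window of each subfamily, compared with 0.192% of all windows. It lay inside the peak only near Pbx4, in a region shared by both lists (15.0 and 15.0, 93.7th and 95.2nd percentile) that is closest to the start of Zfp963. In the Meis2 and Pknox1 windows the joint site lay outside the merged region, which was found in mESC− alone (4.15, 9.03rd percentile) and mESC+ alone (7.09, 55.2nd percentile), respectively.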

How the data were processed

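The 8 genes, the gene lists, the motifs and most settings were chosen with earlier results of these data known. MACS2 was run by the authors on the ATAC-seq library of each state, and every peak they deposited carries a fold enrichment (a ratio over background) and −log10 p and q values. The authors' deposited list of dynamic regions holds an enhancer probability per state, a fraction, and a permutation p-value, the latter not used. From the authors' RNA table, made with STAR 2.5.1b and DESeq2, only the mean normalized signal was taken; its log2 fold changes, standard errors, test scores, p-values and adjusted p-values were not used. Gene records and RefSeq promoters belong to GRCm38.p6. The gene records were widened by 100 kb, overlapping peaks were merged, and named regions are the 3 strongest, most risen and most fallen per subfamily, beside regions named after their values were seen for contrast. Percentiles were computed within each list, because separate libraries have no common scale. The 13 checks of the functions on simulated data passed. Python 3.11.15, pandas 2.3.3, NumPy 2.4.6, SciPy 1.17.1, pysam 0.24.0 and matplotlib 3.10.9 were used. Depth per library is unknown, so intervals cover counting error over regions only. ChIP-seq data of the remaining marks were left out.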

Additional observations from a re-analysis of the deposited data

How the results depend on the processing

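No paired analysis was possible because no RNA value per library was analysed and the other assays had a single library in each state, which also left no replicate to omit. Of 278 values recomputed under alternatives, 211 were rated the same, 65 moved and 2 reversed. A share was rated the same if it stayed within its counting interval. Counts and percentile differences have no spread here. A count was rated the same if equal or close, and a percentile difference if its call at 10 points was unchanged. Counts of dynamic regions, 0 within 100 kb, could not change in narrower windows or by nearest start. With lists of equal length, the share of shared regions ranked higher in mESC− was 67.1% for Meis, 47.0% for Pbx and 49.3% for Pknox, and 10.9% of the Pbx regions were found in mESC+ alone. With the 50000 strongest peaks of each list, the shares of shared regions ranked higher in mESC− were 66.7% for Meis, 48.6% for Pknox and, reversed, 55.2% for Pbx. Meis regions in mESC− alone then made up 27.8%, with an interval of 14.2% to 45.2% that includes the 15.0% of all regions. Regions in mESC+ alone made up 5.56% for Meis (0.680% to 18.7%) and 6.67% for Pknox (1.40% to 18.3%). Both intervals include the 15.0% of all regions. Promoters at least 10 points lower in mESC− numbered 3 with a −log10 q of at least 10 (Pknox1, Pknox2 and Meis3) and 1 with any transcript start (Meis2 in place of Pknox1). Counting only regions whose nearest start is the member also reversed the Pbx share, to 54.5%, over few regions. Ranks among shared regions alone, an alternative added after the data were seen, gave 66.3% for Meis and 47.2% for Pbx. All shared regions moved too, from 40.7% to 52.6% (equal length), 52.9% (strongest peaks) and 50.7% (shared ranks), so the values are read against these. Beyond this, the cause of the changes was not tested. For the subfamily shares, windows of 50 kb, a stricter q-value, ranking by −log10 p and a stricter overlap moved none beyond its interval.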
